A study of Rattus norvegicus with 10 samples.

Results

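The genes described here code for 10 transcription factors that mark or build the identity of excitatory neurons: Neurod1, Neurod2, Neurod6, Bhlhe22, Tbr1, Mef2a, Mef2c, Mef2d, Bcl11b and Meis1. They were chosen by symbol, from knowledge of the factors and not by a measured value, though with earlier results of these data known. Of the 10, 9 were among the 11615 genes of the deposited table (Mef2c was not analysed here). Poly(A) RNA was sequenced from hippocampal neurons of Wistar rats that had been kept in culture for 15 days, with 2 biological repeats in each of 5 groups. The groups were a mock group, treated with the mock solution, and cultures collected 5, 10, 60 and 120 min after the solution for chemical long-term potentiation (cLTP), which strengthens synapses across a whole dish. All 10 cultures, mock included, had been given fluorodeoxyuridine and uridine on day 4 to hold back glia, and no time of collection is stated for mock.

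The members fall into families that read DNA in different ways. NEUROD1, NEUROD2, NEUROD6 and BHLHE22 are basic helix-loop-helix (bHLH) proteins; the NEUROD factors bind E-boxes as dimers with E proteins and drive neurons to differentiate, while BHLHE22 is known mainly as a repressor. TBR1 is a T-box factor of early-born glutamatergic neurons, BCL11B (CTIP2) a zinc-finger factor of deep-layer cortical and hippocampal neurons in the mouse, and MEIS1 a homeodomain factor that works with PBX proteins. MEF2 proteins are MADS-box factors whose activity in neurons is switched by calcium signals, through calcineurin and class IIa histone deacetylases; they are not restricted to excitatory neurons.

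Promoters are shown for the 3 NEUROD genes, of which 2 were lower at 120 min and 1 did not pass, and for Mef2a, which did not pass at any time. RefSeq's promoter table (assembly GRCr8) held 7 of the 10 genes, and the 250 bases before the annotated start were searched on both strands, with matches that overlap counted as they stand. Capitals mark E-boxes (CANNTG) and the core of the cAMP response element (CRE, TGACG or its reverse complement) in the NEUROD genes, and the MEF2 consensus in Mef2a. The windows lie on the minus strand at chr3:84770455-84770704 for Neurod1, chr10:83824278-83824527 for Neurod2, chr4:86180156-86180405 for Neurod6 and chr1:130392163-130392412 for Mef2a.
Neurod1: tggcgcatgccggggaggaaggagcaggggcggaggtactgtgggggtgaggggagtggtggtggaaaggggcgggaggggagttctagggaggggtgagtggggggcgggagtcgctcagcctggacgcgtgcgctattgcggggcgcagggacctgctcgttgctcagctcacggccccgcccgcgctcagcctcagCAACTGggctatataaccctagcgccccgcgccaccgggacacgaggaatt
Neurod2: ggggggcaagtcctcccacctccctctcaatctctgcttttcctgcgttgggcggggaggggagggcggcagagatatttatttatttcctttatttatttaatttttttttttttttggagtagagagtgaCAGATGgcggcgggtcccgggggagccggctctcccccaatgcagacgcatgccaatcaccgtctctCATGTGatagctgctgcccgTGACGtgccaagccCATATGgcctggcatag
Neurod6: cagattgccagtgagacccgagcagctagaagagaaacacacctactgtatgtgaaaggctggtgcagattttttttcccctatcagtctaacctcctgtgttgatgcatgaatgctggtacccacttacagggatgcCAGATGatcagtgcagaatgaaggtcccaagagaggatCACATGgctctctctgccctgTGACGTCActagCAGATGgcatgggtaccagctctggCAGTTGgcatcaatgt
Mef2a: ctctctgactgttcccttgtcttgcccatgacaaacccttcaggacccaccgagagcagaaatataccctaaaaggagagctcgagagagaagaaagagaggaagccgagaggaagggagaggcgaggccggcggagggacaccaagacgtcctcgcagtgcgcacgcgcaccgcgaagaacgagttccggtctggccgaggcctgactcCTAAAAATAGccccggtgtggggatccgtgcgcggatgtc

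The window of Neurod6 held 4 E-boxes, that of Neurod2 held 3 and that of Neurod1 held 1. Tbr1 had 1 E-box too, and the other 3 windows (Mef2a, Mef2d and Meis1) had none; among all 27457 promoters of this length, 65.2% held at least 1. The CRE core stood once in Neurod2, 31 bases before the start. In Neurod6 a match on each strand, 53 and 50 bases before the start, overlapped to form a palindrome. No other of the 7 windows held the CRE core, which 19.0% of all promoters do. The MEF2 consensus was found in Mef2a alone among the 7, 40 bases before the start, and in 3.07% of all promoters. None of the 7 windows held the AP-1 motif TGANTCA or a CArG box, present in 6.36% and 1.5% of promoters.

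At 120 min, 5 of the 9 transcripts were lower than in mock, those of Meis1, Neurod6, Bhlhe22, Bcl11b and Neurod1, and 0 were higher. Their mean levels stood between 46.2% of mock (Meis1) and 80.0% (Neurod1). Mef2a, Mef2d, Neurod2 and Tbr1 did not pass. Calls are at an adjusted p under 0.05 from limma with Benjamini-Hochberg adjustment over all 11615 genes; at this time 16.9% of all genes were lower, 20.4% higher and 37.3% one or the other. The count of 0 higher was 0 also at an unadjusted p under 0.05 and with limma-voom. Levels below are CPM (a gene's reads scaled to a common library total) divided by trimmed-mean (TMM) factors. Fold changes are differences of log2(CPM + 1), so those of low genes come out too small.

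Meis1 (chromosome 14, 103182178 to 103321129, minus strand, rn6) had the largest change. It was at 4.58 and 4.27 CPM at 120 min, against 9.94 and 9.20 CPM in mock. At the times between, it was at 8.45 and 9.02 CPM at 5 min, 9.59 and 9.77 CPM at 10 min and 7.78 and 7.58 CPM at 60 min. Both 120 min libraries lay below the other 8, and both 60 min libraries lay below those of mock, 5 min and 10 min. The log2 fold change at 120 min was -0.96 (SE 0.08, limma adjusted p = 2.0e-06), and 0.0517% of all genes had a lower one. At 60 min it was -0.28 (limma adjusted p = 0.056). These levels rest on 173 to 528 reads per library.

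Neurod6, a bHLH factor of pyramidal neurons (chromosome 4, 85911861 to 85915107, minus strand, rn6), was at 84.7 and 87.0 CPM at 120 min, against 126 and 136 CPM in mock. It had been at 140.0 and 142 CPM at 5 min, 125 and 124 CPM at 10 min and 122 and 123 CPM at 60 min. The 120 min libraries stood apart below all others, with a log2 fold change of -0.61 (SE 0.04, limma adjusted p = 7.5e-07). Bhlhe22 (chromosome 2, 102685513 to 102688624, plus strand, rn6) was lower too, at 124 and 119.5 CPM at 120 min, against 166 and 181 CPM in mock. Between these times it was at 183 and 178 CPM at 5 min, 168 and 169.9 CPM at 10 min and 189.7 and 179 CPM at 60 min. Its log2 fold change at 120 min was -0.50 (SE 0.05, limma adjusted p = 1.0e-05).

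Bcl11b (chromosome 6, 131834097 to 131926272, minus strand, rn6) was at 41.6 and 39.4 CPM at 120 min, against 53.7 and 54.6 CPM in mock. It stood at 53.5 and 52.3 CPM at 5 min, 52.0 and 51.2 CPM at 10 min and 61.3 and 58.6 CPM at 60 min, so that the 60 min libraries were the highest of the 10 and the 120 min libraries the lowest. The log2 fold change at 120 min was -0.41 (SE 0.05, limma adjusted p = 5.1e-05). Neurod1, which starts neuronal differentiation and in the mouse is needed for the dentate gyrus (chromosome 3, 66414321 to 66417617, minus strand, rn6), was at 19.9 and 20.1 CPM at 120 min, against 25.1 and 24.8 CPM in mock. The other libraries held 24.0 and 25.6 CPM at 5 min, 24.9 and 21.5 CPM at 10 min and 24.4 and 26.9 CPM at 60 min. Its fall was the smallest of the 5 (log2 fold change -0.31, SE 0.08, limma adjusted p = 0.0077).

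**Figure D1:**
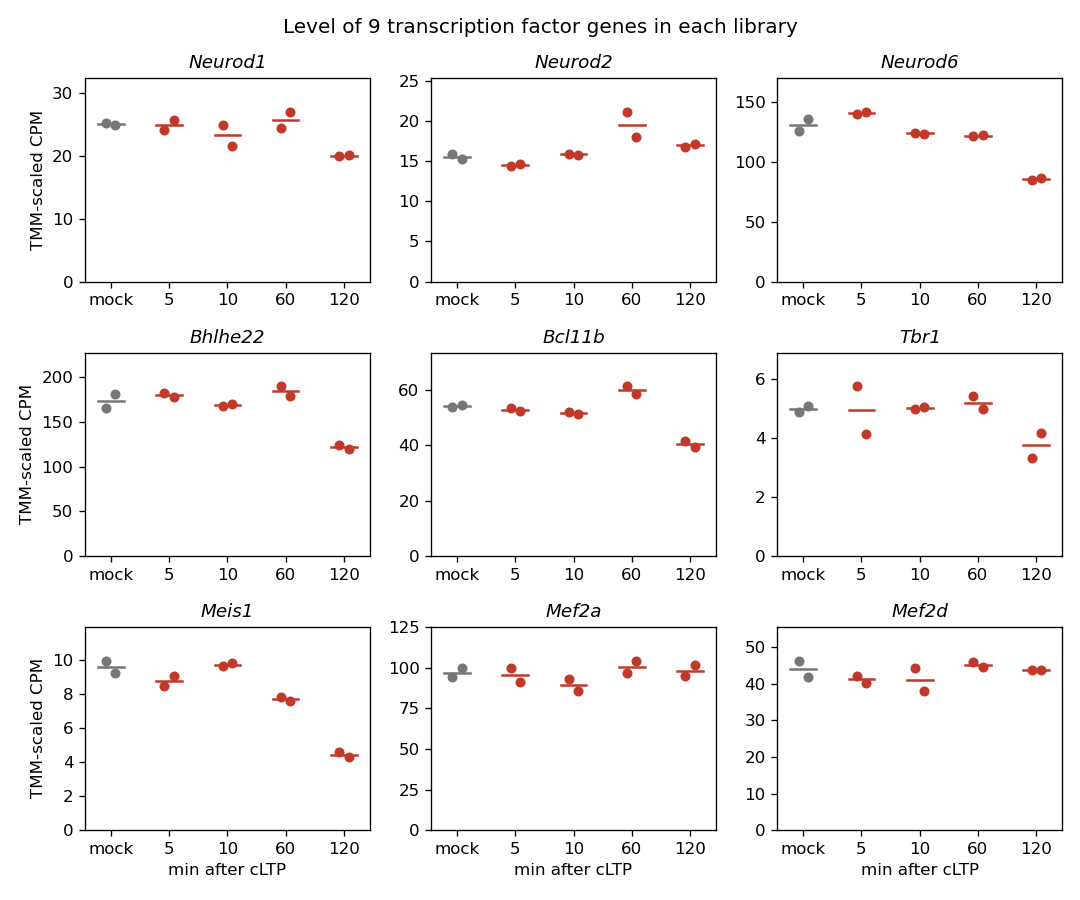
TMM-scaled CPM (vertical axes, each from 0) of the 9 genes in mock cultures and at 5, 10, 60 and 120 min after cLTP; each point is 1 library and each bar the mean of 2. In Meis1, Neurod6, Bhlhe22, Bcl11b and Neurod1 both 120 min points lie below all the other 8, whereas in Mef2a and Mef2d the 120 min points lie among the others.

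Tbr1 (chromosome 3, 47677720 to 47685902, plus strand, rn6) was the rarest of the 9 by CPM, with 125 to 273 reads per library. It was at 3.31 and 4.17 CPM at 120 min, against 4.89 and 5.07 CPM in mock; the groups did not overlap, but 1 of the 5 min libraries, at 4.11 CPM, lay below the higher 120 min library. The log2 fold change of -0.34 (95% interval -0.62 to -0.06) missed the threshold (limma adjusted p = 0.058). It passed in 8 of the 23 other settings, with adjusted p from 0.018 to 0.35, and in the authors' deposited table it stands at -0.406 with an adjusted p of 0.0279. That table places 6 of the 9 genes lower at 120 min, namely Tbr1 and the 5 above.

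The MEF2 genes showed no such fall. Mef2a (chromosome 1, 128209966 to 128341263, minus strand, rn6) was at 95.1 and 102 CPM at 120 min, against 94.2 and 99.99 CPM in mock, and between 85.6 and 105 CPM in the 6 libraries of the other times. Its log2 fold change was 0.02 (95% interval -0.12 to 0.16, limma adjusted p = 0.85). Mef2d (chromosome 2, 187512164 to 187538027, plus strand, rn6) was at 43.9 and 43.8 CPM at 120 min, against 46.4 and 42.01 CPM in mock (log2 fold change -0.01, interval -0.17 to 0.15, limma adjusted p = 0.94). The groups overlapped in both genes, and the intervals give the size of change that these libraries still allow. Neurod2 (chromosome 10, 86280865 to 86282683, minus strand, rn6) was at 16.8 and 17.2 CPM at 120 min, against 15.8 and 15.2 CPM in mock. Both 120 min libraries were above mock, with a log2 fold change of 0.12 (interval -0.04 to 0.29) that did not pass (limma adjusted p = 0.23).

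**Figure D2:**
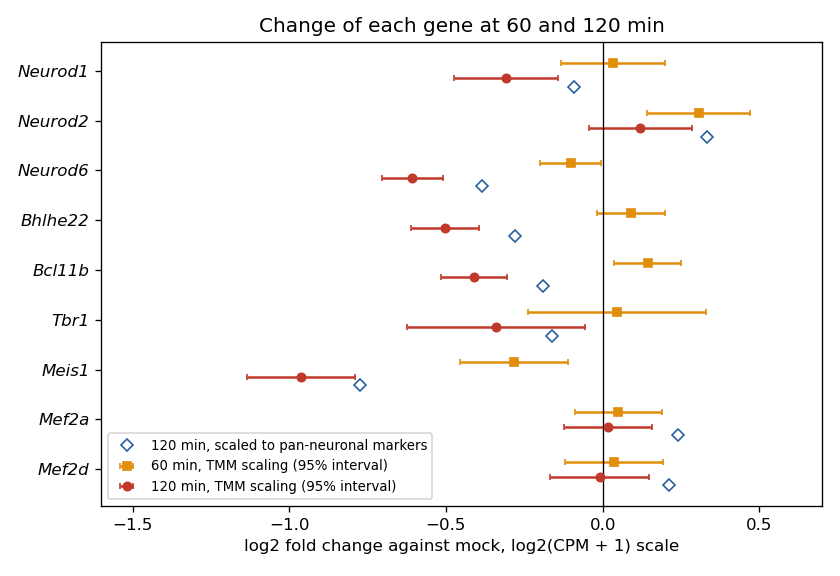
Log2 fold change against mock of each gene at 60 min (squares) and 120 min (circles) with 95% intervals, and at 120 min after scaling to pan-neuronal markers (open diamonds, no interval). The 120 min intervals of Neurod1, Neurod6, Bhlhe22, Bcl11b, Tbr1 and Meis1 lie below 0, and the diamonds stand to the right of the circles in all 9 genes.

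Markers of neurons were lower at 120 min as well. Of 12 pan-neuronal markers 7 were lower (median log2 fold change -0.21; 11 lower with library totals), and all 12 had a fold change below 0. Their summed level was 3670 to 3828 CPM at 120 min, against 4195 to 4413 CPM in mock. Elavl4, an RNA-binding protein of neurons, was at 38.6 ± 0.51 CPM against 51.0 ± 0.62 CPM (SD, n = 2 each, limma adjusted p = 0.00012), Snap25, a SNARE of transmitter release, at 536 ± 19 against 625 ± 4.6 CPM (limma adjusted p = 0.0012), and Map2, a dendritic protein, at 739 ± 21 against 880 ± 57 CPM (limma adjusted p = 0.049). Excitatory markers, of which 3 of 12 are members, were lower in 6 cases, and in 8 with library totals (median -0.24 with TMM), among them the metabotropic receptor gene Grm5 (log2 fold change -0.28) and the AMPA receptor gene Gria2 (-0.21). Inhibitory markers were lower in 4 of 9 cases, and in 7 with library totals (median -0.18 with TMM), among them the GABA-synthesis gene Gad2 (-0.36). The median over the 9 members was -0.34 and over all genes -0.01. In bulk cultures, fewer cells of a type and less RNA per cell cannot be told apart.

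When libraries were scaled to the 12 pan-neuronal markers in place of TMM factors, the median of all genes at 120 min moved to 0.21 on the log2 scale and 96.7% of the called genes were higher, against 54.7% with TMM (36.4% with library totals). This scale holds the mean of the 12 pan-neuronal markers level by construction, and 1 of them was lower on it. Of the excitatory markers 2 were higher and 1 lower, and of the inhibitory markers 1 passed each way. The lower excitatory marker was the member Neurod6, and the member Neurod2 was among the higher, so these counts are not independent of the members. In the same scaling 4 of the 9 members were still lower, while 1.7% of all genes were: Meis1 (-0.77), Neurod6 (-0.38), Bhlhe22 (-0.28) and Bcl11b (-0.19), with limma adjusted p of 1.28e-05, 9.28e-05, 0.00295 and 0.0394. Neurod1 no longer passed (-0.09, adjusted p = 0.35; 0.0021 to 0.35 over all settings). Neurod2 (0.33), Mef2a (0.24) and Mef2d (0.21) were then higher (adjusted p = 0.007, 0.014 and 0.045), as were 49.9% of all genes. Over the 23 other settings Neurod2 and Mef2a passed at 120 min in this one alone (adjusted p from 0.007 to 0.55 and from 0.014 to 0.87), and so did Mef2d (0.045 to 0.96).

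**Figure D3:**
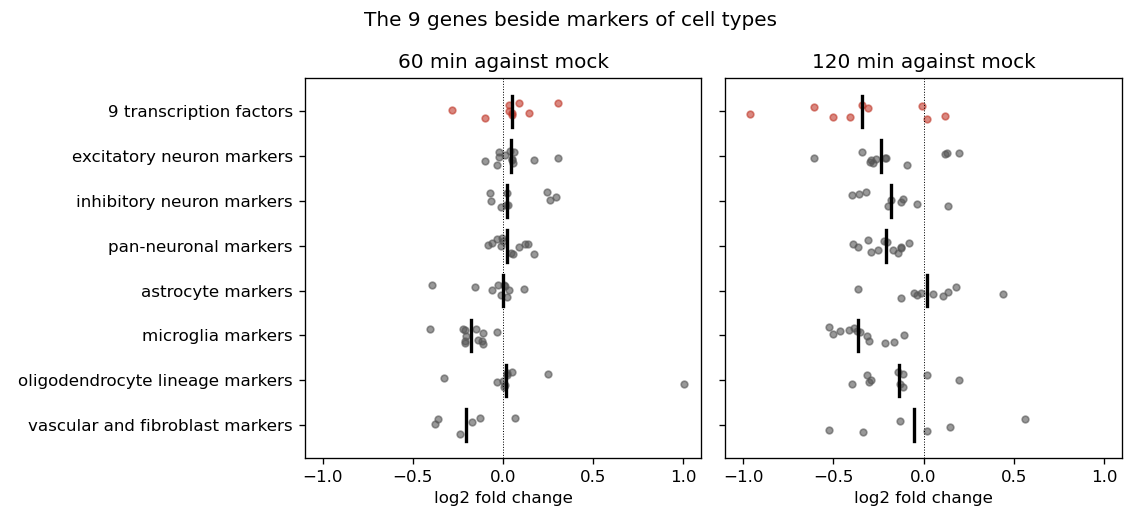
Log2 fold change (TMM scaling) of the 9 genes and of marker genes of 7 cell classes at 60 min (left) and 120 min (right) against mock; each point is 1 gene and each bar the median of its list. At 120 min the medians are -0.34 for the 9 genes, -0.24 for excitatory, -0.18 for inhibitory and -0.21 for pan-neuronal markers, and 0.02 for astrocyte markers.

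Non-neuronal transcripts were abundant in these cultures. Gfap, the filament gene of astrocytes, which passed with TMM but not with library totals, averaged 11940 ± 470 CPM at 120 min and 10520 ± 67 CPM in mock (SD, n = 2 each), above Map2 in every library; in mock Map2 was at 880 CPM, the glutamate transporter gene Slc17a7 at 887 CPM, Gad1 at 482 CPM and the microglial C1qa at 58.2 CPM. Summed astrocyte markers stood at 23520 to 24710 CPM at 120 min, against 22200 to 22320 CPM in mock, with 3 of 10 higher and 1 lower (1 higher and 2 lower with library totals, where the median was -0.045, and 8 higher with the neuronal scaling, where it was 0.24): Sox9 rose (log2 fold change 0.44) and Atp1b2 fell (-0.36; not called with the neuronal scaling). Microglia markers were lower in 9 of 12 cases, and in 3 with the neuronal scaling (median -0.36 with TMM, summed 213 to 220 against 289 to 293 CPM), among them the complement genes C1qa (-0.52), C1qb (-0.46) and C1qc (-0.42). The microglia sum was below mock earlier too, at 260 to 269 CPM at 5 min and 227 to 253 CPM at 10 min. No microglia marker passed at either of these times. Oligodendrocyte lineage markers were lower in 2 of 10, and in 6 with library totals (Olig1 -0.29 and Mog -0.30, neither called with the neuronal scaling). Vascular and fibroblast markers were lower in 2 of 6, and in 1 with the neuronal scaling (Pdgfrb -0.52 and Col1a1) and higher in 1 (Flt1, 0.56; Col3a1, the highest, did not pass), and cycling-cell markers passed in 1 of 8 each way, with 2 lower with library totals (Mki67 -0.40, not called with the neuronal scaling, and Pcna 0.39). No marker in the table was listed at 0, and 4 of those fixed (Npy, Col1a2, Cldn5 and Pecam1) were not analysed here. The part of these shifts in the members' falls was not tested. The neuronal scaling above only changes the factor of each library, so it does not measure that part.

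**Figure D4:**
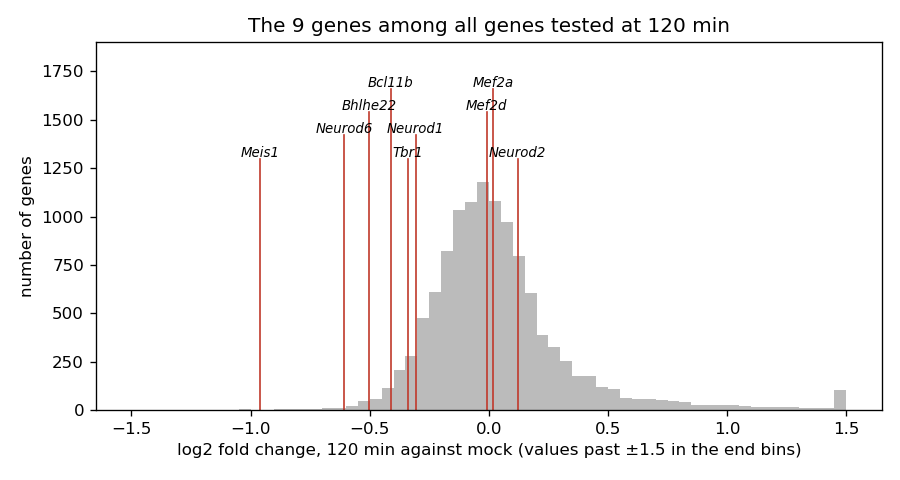
Histogram of the log2 fold change at 120 min against mock for all 11615 genes (bins of 0.05), with a line for each of the 9 genes. Meis1, Neurod6, Bhlhe22 and Bcl11b lie in the left tail, where 0.0517%, 0.439%, 1.01% and 2.27% of genes are lower, and Mef2a and Mef2d lie near the centre.

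Tested directly, 6 of the 9 genes were lower at 120 than at 60 min (16% of all genes were) and 0 were higher (19.8% of all; 35.8% in either direction), again 0 at an unadjusted p under 0.05 and with limma-voom. Meis1 was lower by 0.68 on the log2 scale, Bhlhe22 by 0.59, Bcl11b by 0.55, Neurod6 by 0.51, Tbr1 by 0.39 and Neurod1 by 0.34, with limma adjusted p of 5.4e-05, 3.4e-06, 5.3e-06, 5.3e-06, 0.036 and 0.0046. The call of Tbr1 was lost without 60 min replicate 1 (adjusted p = 0.16), 60 min replicate 2 (0.08), 120 min replicate 1 (0.25) or 10 min replicate 1 (0.0504), and with the neuronal scaling (0.28; 0.0092 to 0.28 over all settings). That of Neurod1 was lost without 60 min replicate 2 (0.0509) and with the neuronal scaling (0.34; 0.00185 to 0.34 over all settings). With that scaling Mef2a and Mef2d were higher at 120 than at 60 min, as were 58.8% of all genes, while 1.72% were lower.

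At 60 min Neurod2 was the only one of the 9 to pass, where 4.64% of all genes were higher, and 0 were lower (1.95% of all; 6.59% in either direction). It was at 21.1 and 18.0 CPM, against 15.8 and 15.2 CPM in mock, 14.4 and 14.6 CPM at 5 min and 15.9 and 15.8 CPM at 10 min. In the authors' deposited table Neurod2 stands at 0.332 at 60 min, with an adjusted p of 0.00865. The 60 min libraries were the highest of the 10, with replicate 1 above replicate 2 (log2 fold change 0.31, SE 0.08, limma adjusted p = 0.031). The call was lost in 8 of the 23 other settings (adjusted p from 0.0097 to 0.29). Among them it was 0.11 without mock replicate 1, 0.17 without mock replicate 2, 0.29 without 60 min replicate 1 (where the log2 fold change was 0.20), and 0.054 without either 120 min library. The count of 0 lower was 2 at an unadjusted p under 0.05 (Neurod6 and Meis1) and 0 with limma-voom. Between 10 and 60 min Bcl11b was higher at 60 min by 0.21 (limma adjusted p = 0.023; 3.7% of all genes were higher) and Meis1 lower by 0.30 (limma adjusted p = 0.049; 1.93% of all genes were lower; 5.63% changed in either direction). Each lost the call when either 10 min library or either 60 min library was left out (adjusted p from 0.0563 to 0.157 for Bcl11b and from 0.123 to 0.241 for Meis1). Meis1 lost it also without either mock library (0.0635 and 0.0628) or either 120 min library (0.0675 and 0.0672).

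Within the first 10 min none of the 9 passed in limma: 0 were higher and 0 lower at 5 min, where 0% of all genes were called (111 genes higher and 582 lower without 5 min replicate 1), and likewise at 10 min, where 0.0344% were. The log2 fold changes ran from -0.12 (Meis1) to 0.10 (Neurod6) at 5 min and from -0.12 (Mef2a) to 0.03 (Neurod2) at 10 min. At an unadjusted p under 0.05 the counts were 1 at 5 min (Neurod6, higher) and 0 at 10 min, and limma-voom called 0 at both times. Tested for a change at any of the 4 times, 6 of the 9 passed (limma adjusted p under 0.05, as for 41.3% of all genes). Those not called were Tbr1, Mef2a and Mef2d.

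Compared per deposited gene length, Neurod6 was the most abundant of the 9 in mock cultures, at 67.3 ± 3.6 CPM per kb (SD, n = 2). Next came Bhlhe22 at 55.7 ± 3.4, Mef2a at 30.2 ± 1.3 and Mef2d at 20.7 ± 1.4 CPM per kb. Whether the deposited lengths are those of the transcripts was not checked. Lower levels were those of Neurod1 (13.8 ± 0.11), Neurod2 (8.56 ± 0.24), Bcl11b (5.09 ± 0.058), Meis1 (3.86 ± 0.21) and Tbr1 (2.47 ± 0.064 CPM per kb). No 2 neighbours in this order overlapped within 1 SD, with 2 libraries each. Among the 3 NEUROD genes, Neurod6 held 68.2% and 68.4% of the summed CPM per kb at 120 min, against 74.1% and 76.0% in mock. Neurod2 held 14.5% in both libraries at 120 min, against 10.0% and 9.13% in mock, and Neurod1 17.2% and 17.0%, against 15.9% and 14.9%. The difference between the genes' responses was not tested. By CPM without division by length, 3 of the 9 genes kept their rank.

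**Figure D5:**
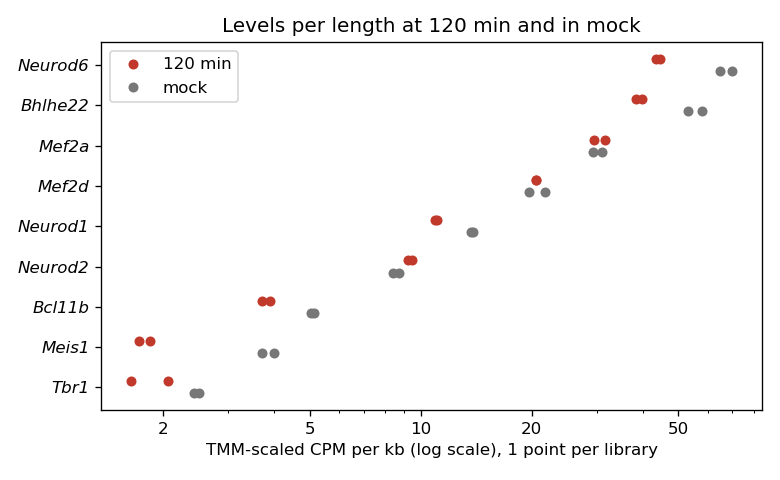
TMM-scaled CPM per kb of deposited gene length (log axis) of the 9 genes at 120 min (upper points) and in mock (lower points), 1 point per library, ordered by the mock mean. Neurod6 and Bhlhe22 lead in both groups, and at 120 min Meis1 (1.78 ± 0.09 CPM per kb) and Tbr1 (1.85 ± 0.30 CPM per kb) lie within 1 SD of each other.

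The genes whose course was most like that of Meis1 over the 10 libraries were Zfp426, Sall2 and Fam53b, with a Pearson r of 0.994, 0.985 and 0.983 on the log2 scale. Zfp426 was at 14.1 CPM at 120 min, against 20.0 CPM in mock (log2 fold change -0.48), Sall2 at 48.1 against 86.6 CPM (-0.84) and Fam53b at 25.8 against 39.8 CPM (-0.60). The libraries share their scaling and fall into groups by time, so r describes this course and no more.

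Partners of the bHLH members changed in part. In bulk cultures the cell type behind a change in this list and those that follow is not known. Of the 3 E proteins that dimerise with NEUROD factors, Tcf4 was lower at 120 min (196 ± 5.9 CPM against 225 ± 1.7 CPM, log2 fold change -0.20, limma adjusted p = 0.028); with library totals 2 of the 3 were lower, and scaled to neuronal markers 1 was higher and Tcf4 stood at 0.03. All 4 ID genes, whose proteins capture E proteins in dimers that cannot bind DNA, passed at 120 min, 1 higher and 3 lower, against 1 higher and 1 lower with the neuronal scaling. Id1 was at 47.1 ± 3.7 CPM at 60 min and 48.1 ± 4.1 CPM at 120 min, against 26.1 ± 0.51 CPM in mock (log2 fold change 0.83 and 0.86). Id2 was at 141 ± 9.2 CPM at 60 min, above mock, and at 64.0 ± 5.7 CPM at 120 min, below it (mock 105 ± 3.0 CPM, log2 fold change 0.42 and -0.71, limma adjusted p = 0.00091 and 3.4e-06). Id3 was lower at both times (-0.55 and -0.35; at 120 min -0.12 and not called with the neuronal scaling).

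Genes around MEF2 moved in both directions. Of 9 measured regulators of MEF2 activity, 3 were higher and 3 lower at 120 min. The calcineurin gene Ppp3ca (-0.18) and the kinase gene Camk4 (-0.31) were lower and the p38 kinase gene Mapk14 higher (0.19), while with library totals 4 were lower and Mapk14 was not called, and with the neuronal scaling 4 were higher and neither Ppp3ca nor Camk4 was called. Of 10 genes described as MEF2 targets in neurons, 4 were higher at 60 min, and 6 higher and 2 lower at 120 min (median 0.11 and 0.45; at 120 min 7 higher with the neuronal scaling). Arc, a synaptic immediate-early gene, was at 77.3 ± 4.0 CPM at 60 min and 74.0 ± 0.26 CPM at 120 min, against 29.0 ± 2.0 CPM in mock. Klf6 and Jun were higher at both times too (log2 fold change 2.69 and 1.81 at 60 min, 0.79 and 0.62 at 120 min); these genes respond to many other factors.

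Genes around TBR1, MEIS1 and BCL11B were followed too. Of 4 genes linked to TBR1, 1 was lower and 1 higher at 120 min (3 lower with library totals). The NMDA receptor gene Grin2b, a described target, was the lower one (78.2 ± 2.5 against 99.95 ± 6.7 CPM, limma adjusted p = 0.031; not called with the neuronal scaling) and Fezf2, a factor of deep-layer neurons, higher (log2 fold change 0.34, limma adjusted p = 0.027; not called with library totals). Of 7 relatives and partners of MEIS1, 3 were lower at 120 min and 1 higher (median -0.17), against 2 higher with the neuronal scaling (median 0.04). Among the lower were Pbx2 (-0.20) and Pknox2 (-0.23), and neither passed with the neuronal scaling. Of 7 relatives and cofactors of BCL11B, its paralog Bcl11a was lower (13.0 ± 0.69 against 16.8 ± 1.1 CPM, -0.35, limma adjusted p = 0.0041; not called with the neuronal scaling), and 3 were higher, among them Mta2 and Hdac1 of the NuRD complex (0.17 each), neither called with library totals; the neuronal scaling made 6 of the 7 higher.

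Other lineage factors gave a mixed picture at 120 min. Of 13 further factors of cortical and hippocampal glutamatergic neurons, 2 were higher and 5 lower (median -0.10), which became 3 higher and 1 lower with the neuronal scaling, and at 60 min 4 were higher and 1 lower. Emx2, a patterning factor of the hippocampal field, was at 28.6 ± 0.94 CPM at 120 min, against 18.4 ± 0.11 CPM in mock (log2 fold change 0.61), and Sox11, a factor of immature neurons, at 12.3 ± 0.43 against 6.36 ± 0.80 CPM (0.86). Pou3f2, a POU factor of upper-layer neurons, was at 11.7 ± 0.77 against 19.3 ± 0.37 CPM (-0.68). Of 5 factors of the GABAergic lineage 2 were lower (4 with library totals), Dlx1 among them: it was at 14.9 ± 0.041 against 20.0 ± 0.69 CPM (-0.40, limma adjusted p = 0.00065), and did not pass with the neuronal scaling.

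Each library held between 32961534 and 54040657 reads, and the 9 genes had between 125 and 9237 reads in a library. The 5 min libraries differed most from each other (SD of the log2 difference 0.164, against 0.113 to 0.125 in the other 4 pairs). In the table's coordinates Neurod1 and Tbr1 lie inside the listed spans of Rpl9 and Rps13, and Neurod6 inside that of Fam60a. Those 3 spans run over 73550 to 181000 kb for genes of 1044 to 7702 bases, and whether reads were shared was not tested.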

How the data were processed

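RNA sequencing was analysed from 10 libraries in 5 groups of 2. The submitters' processing notes name TopHat2 2.1.0, bcl2fastq, edgeR and HTSeq, with build rn6, and give neither annotation nor strand setting. The authors deposited 1 table of 11615 genes with CPM per library, gene lengths in bases, and their own log2 fold changes and adjusted p-values per time; 6 repeated mock columns were not used. All CPM values lay within 0.01 reads of whole multiples of 1 step per library, which gives the totals; no count model was run, although the plan listed one. Rows without a symbol (22) were tested and left unnamed.

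CPM were divided by TMM factors (30% of log ratios and 5% of levels trimmed), log2(CPM + 1) values of all libraries were fitted with limma 3.58.1 in R 4.3.3 (intensity trend, 5 residual degrees of freedom), and p-values were adjusted over all genes. The procedure was tested on simulated data in which few genes changed, so that test does not bear on how the calls depend on scaling. Named genes are all members, up to 3 called genes per partner list by p at 120 min, up to 2 plus the highest per marker list, and the 3 genes most correlated with the called member of largest fall, besides 6 genes that check the labelled cell type, and some genes the rule names are not reported here; Rpl9, Rps13 and Fam60a were named after the table was seen. Members and lists were chosen with earlier results of these data known. The labels call the 2 samples of a group biological repeats without saying whether cultures or animals were separate, so p-values measure only the spread between these samples. Figures used matplotlib 3.10.9.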

Additional observations from a re-analysis of the deposited data

Results flagged for a closer look

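Several members differed between times when the difference itself was tested with limma over all genes (adjusted p from 3.4e-06 to 0.049). The log2 change against mock at 120 min minus that at 60 min was -0.34 for Neurod1, -0.506 for Neurod6, -0.595 for Bhlhe22, -0.388 for Tbr1, -0.555 for Bcl11b and -0.679 for Meis1. The change at 60 min minus that at 10 min was 0.213 for Bcl11b and -0.299 for Meis1. These are the differences between times reported above. As described there, the calls of Tbr1 and Neurod1 (120 against 60 min) were lost in some other settings. So were those of Bcl11b and Meis1 (60 against 10 min).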

How the results depend on the processing

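With 2 libraries per group, 23 other settings were compared, 2 of them (voom with sample weights, and leaving out both 5 min libraries) chosen after seeing the data; the planned count models were not run. The falls of Meis1, Neurod6, Bhlhe22 and Bcl11b at 120 min passed in all 23, and that of Neurod1 in 22. Of 295 counts of members under these settings 257 stayed within 1.5 times. The 257 include counts that stayed empty, as at 5 and 10 min, where no member was called with TMM. Empty counts have no size to compare, so this total says little about how stable the counts of called members were. Of 1422 values of single members 1351 kept their side of the threshold, 28 newly passed, 40 no longer passed and 3 reversed. The 1351 include values that changed sign without passing in either setting. The 3 reversed were not called with TMM, where their log2 fold changes ran from -0.045 to -0.009. They passed above 0 with pan-neuronal scaling, so no called direction was reversed. The cause was not tested for any of the changes below.

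At 60 min against mock the 1 member higher became 0 with library totals, pan-neuronal scaling or only the groups compared (0 to 1 when single libraries were left out), and the 0 lower became 1 (Meis1) with library totals, upper-quartile factors, pseudocount 5, no intensity trend or voom with sample weights. At 120 min pan-neuronal scaling made 3 members higher, with Mef2d reversed to 0.211; leaving out libraries gave 5 to 6 lower. Against 10 min, the 1 member higher at 60 min became 0 with library totals, upper-quartile factors or pan-neuronal scaling and 2 with limma-voom or without both 5 min libraries (0 to 2 leaving out single libraries). The 1 lower became 0 with median-of-ratios factors, pseudocount 0.1, only the groups compared, voom with sample weights or a replicate block (0 to 1 leaving out single libraries). At 120 against 60 min pan-neuronal scaling made 2 higher, with Mef2a at 0.225 and Mef2d at 0.209, both reversed, and leaving out libraries gave 5 to 6 lower. Without division by length 3 of 9 genes kept their rank.

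Same-numbered libraries deviated together weakly at most (r from -0.164 to 0.273 over 10 pairs of groups, 3 over 0.1). With 2 libraries per group these values cannot show whether the numbers pair them. The replicate block left 5 members lower at 120 min and changed the call of Meis1 at 60 against 10 min (adjusted p = 0.064).

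Over all genes, those lower at 120 min numbered 1960, but 3123 with library totals, 3106 with upper-quartile factors and 198 with pan-neuronal scaling, where 5792 were higher against 2367. At 5 min 0 genes passed, but 111 higher and 582 lower without 5 min replicate 1. At 10 min 4 genes were higher, and 0 to 9 over the other settings. From 10 to 60 min 224 were lower, but 405, 386, 741 and 350 with library totals, upper-quartile factors, pan-neuronal scaling and without the 5 min libraries. The share of calls that were higher was 70.4% at 60 min, 57.3% with library totals, and 65.7% at 60 against 10 min, 26.6% with pan-neuronal scaling. From 60 to 120 min 2296 were higher and 1864 lower, but 6832 and 200 with pan-neuronal scaling.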
